A study of Mus musculus with 6 samples.

Results

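Dppa2, Dppa3, Dppa4, Dppa5a, Utf1, Tcl1, Pecam1 and Gbx2 are genes widely used to mark undifferentiated mouse embryonic stem (ES) cells, and they were followed here across activation and inhibition of Activin/Nodal signalling. They were chosen by name, with earlier results of these data known. Every probe set annotated to 1 of these symbols was taken, which gave 11 probe sets for the 8 genes. The arrays hold 18193 genes with a named probe set. Utf1 has 3 probe sets, Dppa2 has 2 and the other genes have 1 each. A gene with several probe sets is represented, unless an ID is given, by its brightest one, judged on the mean over the 6 arrays.

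RNA came from E14Tg2a, a feeder-independent mouse ES cell line, so all values are from a single line. All cells grew in N2B27, a serum-free medium, supplied with LIF (1000 U/ml) together with BMP4 (20 ng/ml), and the 3 groups differ in what was added and for how long. Control cells were untreated, with no vehicle stated. Activin cells received activin at 10 ng/ml for 2 h, and SB431542 cells received SB431542 at 5 µM for 24 h. Activin signals through the type I receptors and Smad2/3 proteins that Nodal also uses, and SB431542 blocks the kinase of those receptors. Each group has 2 single-colour Affymetrix arrays, and no label tells whether these were separate cultures. The p-values therefore reflect the spread between arrays only, which may be technical.

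ES cells keep their state through a network of transcription factors around Pou5f1 (Oct4), Sox2 and Nanog, and many of its targets are switched off early when the cells differentiate, which is why such genes serve as markers. LIF acts through Stat3 to hold the naive state, and BMP4 replaces serum beside it. Nodal signalling is known to be active in these cultures, since ES cells make Nodal themselves. The marker genes here do unrelated jobs. Dppa2 and Dppa4 are partner proteins with a SAP domain that sit on CpG-rich promoters. Dppa3 (Stella) protects DNA methylation marks in the early embryo, and Dppa5a (Esg1) is an RNA-binding protein with a KH-like domain. Utf1 is a chromatin-bound protein that tempers developmental genes, Tcl1 is a coactivator of Akt kinases, Pecam1 (CD31) is an adhesion molecule of the inner cell mass and of endothelium, and Gbx2 is a homeobox factor that is induced by LIF in ES cells and patterns the hindbrain in the embryo.

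Of these genes 3, Utf1, Tcl1 and Gbx2, have an entry in the RefSeq promoter table (build GRCm38.p6). All 3 had lower values in both SB431542 arrays than in either control array, so the 250 bases before each start site are shown, 5′ to 3′ on the gene's strand. The window of Utf1 is chr7:139943606-139943855, plus strand, that of Tcl1 is chr12:105222738-105222987, minus strand, and that of Gbx2 is chr1:89931177-89931426, minus strand. Capitals mark matches on either strand to 6 short motifs. The Smad box searched, where Smad proteins can bind, was CAGAC. The GC box, a site of Sp-type factors, was GGGCGG. The E-box, read by bHLH factors such as Myc, was CACGTG. The TATA box of core promoters was TATAAA. The octamer that Pou5f1 and its relatives read was ATGCAAAT. The Stat site was TTCNNNGAA.
Utf1: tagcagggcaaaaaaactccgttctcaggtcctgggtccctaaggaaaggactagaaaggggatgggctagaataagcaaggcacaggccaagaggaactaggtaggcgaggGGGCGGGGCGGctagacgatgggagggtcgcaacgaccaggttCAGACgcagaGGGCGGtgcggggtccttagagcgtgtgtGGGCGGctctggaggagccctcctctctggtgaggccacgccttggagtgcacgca
Tcl1: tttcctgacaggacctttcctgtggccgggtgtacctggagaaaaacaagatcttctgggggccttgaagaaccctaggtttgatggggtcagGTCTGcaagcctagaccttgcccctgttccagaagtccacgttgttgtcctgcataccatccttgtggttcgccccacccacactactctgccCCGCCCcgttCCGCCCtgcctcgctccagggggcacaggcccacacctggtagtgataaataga
Gbx2: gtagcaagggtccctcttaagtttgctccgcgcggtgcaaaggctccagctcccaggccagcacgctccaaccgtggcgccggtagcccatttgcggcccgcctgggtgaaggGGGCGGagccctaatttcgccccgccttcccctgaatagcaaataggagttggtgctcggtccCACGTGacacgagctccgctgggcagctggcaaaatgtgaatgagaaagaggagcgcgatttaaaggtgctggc

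The GC box is the letter string that the 3 windows share, with 4 matches in Utf1 (2 of them overlapping by a base), 2 in Tcl1 and 1 in Gbx2, and 32.7% of all 32851 promoter windows of this length hold at least 1. The Smad box was found once in Utf1, 95 bases before the start, and once in Tcl1, 157 bases before it, and 42.2% of all windows hold it. Gbx2 has an E-box 74 bases before its start, which 6.02% of all windows have. The TATA box, the octamer and the Stat site had 0 matches in these 3 windows, where 12.4%, 1.60% and 7.02% of all windows hold them. These are letter matches only and say nothing about binding.

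The medians of the 6 arrays lay between 37 and 49 on the deposited intensity scale. Arrays of the same group differed, with medians of 46 and 37 in control, 38 and 49 after activin, and 43 and 41 after SB431542. Averaged by group on the log2 scale, the medians differed by at most 0.065, which does not show the spread within groups. Lefty2, a Nodal-induced Nodal antagonist that serves as a check of the treatments, fell by 5.05 log2 units after SB431542 (SE 0.13, limma adjusted p = 0.0030). In activin cells it was at +1.39 against control (SE 0.13, limma adjusted p = 0.789), and it passed there with the intensity trend described next. Calls were made with limma at its default settings over 45037 probe sets, adjusted by Benjamini-Hochberg, and beside them stand calls from a robust fit whose prior variance follows brightness, named the intensity trend from here on. The intensity trend gives bright probe sets, such as most of these markers, a smaller error. The cells carried the other ES cell markers: Pou5f1, Sox2, Nanog and Sall4 had control means from 12.05 to 12.49 in log2 intensity, against a range of 3.00 to 5.09 for 27 probe sets of Bacillus transcripts that mouse RNA does not contain. Lefty2 after SB431542 lay within that range, so its fall is a lower limit. The related Lefty1 fell by 5.53 (SE 0.30, limma adjusted p = 0.0341), to 48 and 26. The first of these values is close to that range and the second is within it, so this fall may also be a lower limit.

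The comparison of SB431542 with control asks which markers depend on the Activin/Nodal signal already present in the culture. Utf1 and Dppa5a fell with the intensity trend, by 1.26-fold and 1.21-fold, and so did a probe set of Dppa2, by 1.39-fold. Tcl1 and Gbx2 were lower in both SB431542 arrays than in both controls and did not pass. Dppa3, Dppa4 and Pecam1 had group means within 0.03 log2 units of control. By default settings 0 of the 8 genes passed, against 0.0275% of all genes, and 1 (Utf1) had an unadjusted p under 0.05, as did 13.7% of all genes. With the intensity trend 2 of 8 fell by their brightest probe set and 0 rose, against 2.23% of all genes that fell and 4.25% that rose. Of the 6493 genes with a mean over log2 8, 4.02% fell and 9.06% rose. In bulk RNA, fewer cells that express a gene and less RNA per cell cannot be told apart.

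**Figure D1:**
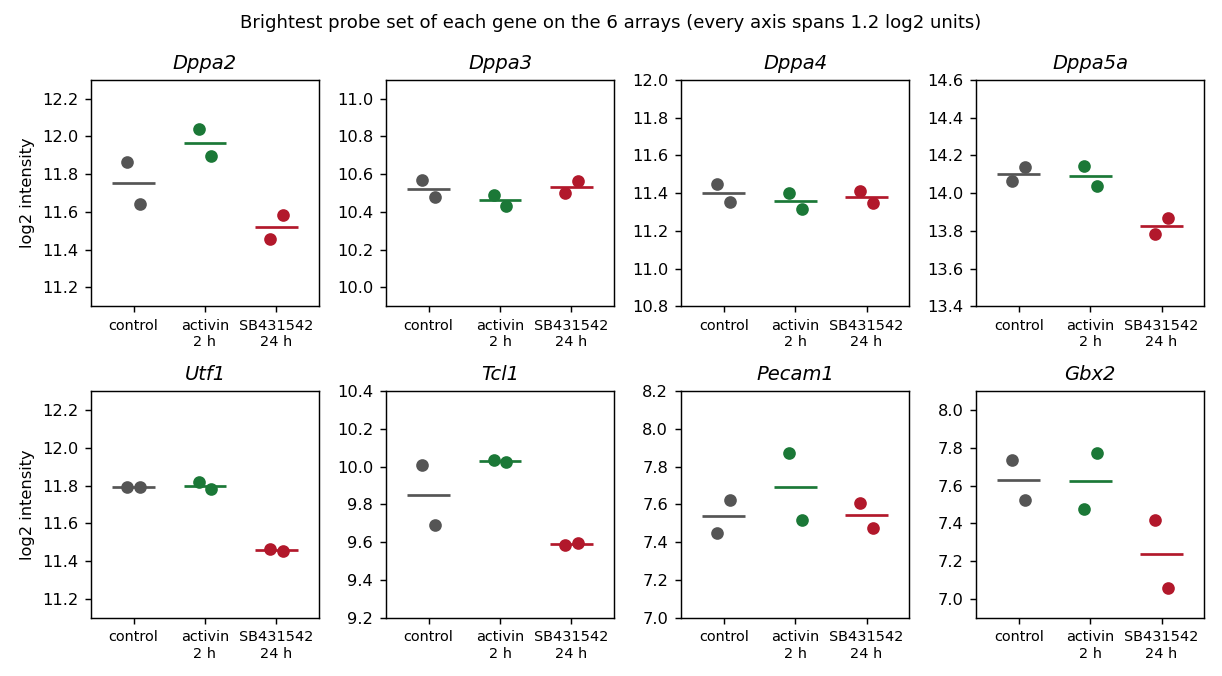
Log2 intensity (vertical axes, all of the same span) of the brightest probe set of each gene in control, activin and SB431542 cells. Points are single arrays and bars are group means (n = 2). Utf1, Dppa5a, Dppa2, Tcl1 and Gbx2 have both SB431542 points below both control points, while those of Dppa3, Dppa4 and Pecam1 overlap them.

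Utf1 gave the tightest values. Its intensity was 3544 and 3547 in control, 3608 and 3517 after activin, and 2824 and 2805 after SB431542. Both SB431542 arrays lay below all other arrays, whose own values overlapped. On the log2 scale the mean went from 11.79 ± 0.00086 (SD, n = 2) to 11.46 ± 0.01, a difference of −0.33 (SE 0.11, 95% interval −0.62 to −0.05). That gives a limma adjusted p of 0.338 by default and 0.0054 with the intensity trend. Of the other 2 probe sets of Utf1, 1443786_at was much dimmer, with 198 and 177 in control and 169 and 162 after SB431542, a difference of −0.18 (SE 0.13, limma adjusted p = 0.604). The third, 1458333_x_at, read 17 and 22 in control and 33 and 23 after SB431542. It went the other way, by 0.51, at levels within the range of the Bacillus probe sets, so it gives no usable change. Averaging the 3 probe sets with equal weight, this one included, left Utf1 at −0.00023 against control, so the call rests on reading its brightest probe set.

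Dppa5a was the brightest of these probe sets, near the top of the scale, whose highest value on any array was 26405. Its intensity was 17117 and 18040 in control, 18083 and 16805 after activin, and 14088 and 14946 after SB431542. The groups other than SB431542 overlapped each other, and both SB431542 arrays were lowest. The log2 mean went from 14.10 ± 0.05 (SD, n = 2) to 13.82 ± 0.06, a difference of −0.28 (SE 0.12, 95% interval −0.58 to 0.03). The limma adjusted p was 0.422 by default and 0.0016 with the intensity trend. Whether the brightness of this probe set compresses its differences was not tested.

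Dppa2 is measured by 2 probe sets that agree in direction and differ in size. By 1429654_at it read 3648 and 3113 in control, 3624 and 3475 after activin, and 2294 and 2557 after SB431542. Both SB431542 arrays were below all others. The log2 difference from control was −0.48 (SE 0.14, 95% interval −0.83 to −0.12), with a limma adjusted p of 0.303 by default and 2.4e-04 with the intensity trend. By the slightly brighter 1453223_s_at it read 3730 and 3192 in control, 4205 and 3805 after activin, and 2811 and 3072 after SB431542. Here the upper SB431542 array and the lower control array were close. The difference was −0.23 (SE 0.14, limma adjusted p = 0.544 by default and 0.115 with the intensity trend), so the call for Dppa2 against control rests on which probe set is read. By 1453223_s_at the difference was −0.34 without control replicate 2 and −0.12 without control replicate 1.

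Dppa4, the partner of Dppa2 and its direct neighbour in the RefSeq gene order of GRCm38.p6, with 0 genes between them, read differently. Its intensity was 2794 and 2617 in control, 2704 and 2546 after activin, and 2722 and 2610 after SB431542. All 3 groups overlapped. The SB431542 difference was −0.02 (SE 0.12, 95% interval −0.32 to 0.28, limma adjusted p = 0.961 by default and 0.940 with the intensity trend). The intervals of Dppa2 and Dppa4 overlap, and the difference between their responses was not tested.

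Dppa3 stood level as well, at 1517 and 1425 in control, 1438 and 1381 after activin, and 1446 and 1516 after SB431542. Its SB431542 difference was 0.01 (SE 0.12, 95% interval −0.29 to 0.31, limma adjusted p = 0.991), a sign that turned when the arrays were normalized again by quantiles or shifted to 1 median. The interval leaves room for a change of the size seen in Dppa5a.

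Tcl1 had a split control group. It read 1032 and 828 in control, 1048 and 1042 after activin, and 767 and 773 after SB431542. Both treated groups were tight, with SDs of 0.01 on the log2 scale, against 0.22 in control. The SB431542 difference was −0.26 (SE 0.15, 95% interval −0.63 to 0.11, limma adjusted p = 0.508 by default and 0.190 with the intensity trend). Its size depends on the control array used, at −0.42 without control replicate 2 (intensity trend adjusted p = 0.0220) and −0.10 without control replicate 1 (0.751).

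Gbx2 and Pecam1 were the dimmest, with control means of 7.63 and 7.54 in log2 intensity, still above every Bacillus value. Gbx2 read 213 and 184 in control, 178 and 219 after activin, and 171 and 133 after SB431542. The SB431542 arrays were the lowest pair, but they differed from each other by more than the nearest control differed from them. The difference of −0.39 (SE 0.19, 95% interval −0.87 to 0.09) had a limma adjusted p of 0.456 by default and 0.253 with the intensity trend. It depends on the SB431542 array kept, at −0.57 without SB431542 replicate 1 and −0.21 without SB431542 replicate 2. Pecam1 read 175 and 197 in control, 234 and 183 after activin, and 195 and 178 after SB431542. Its groups overlapped throughout, with a SB431542 difference of 0.00 (SE 0.17, limma adjusted p = 1.00), whose sign again turned with quantile normalization or shifted medians.

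**Figure D2:**
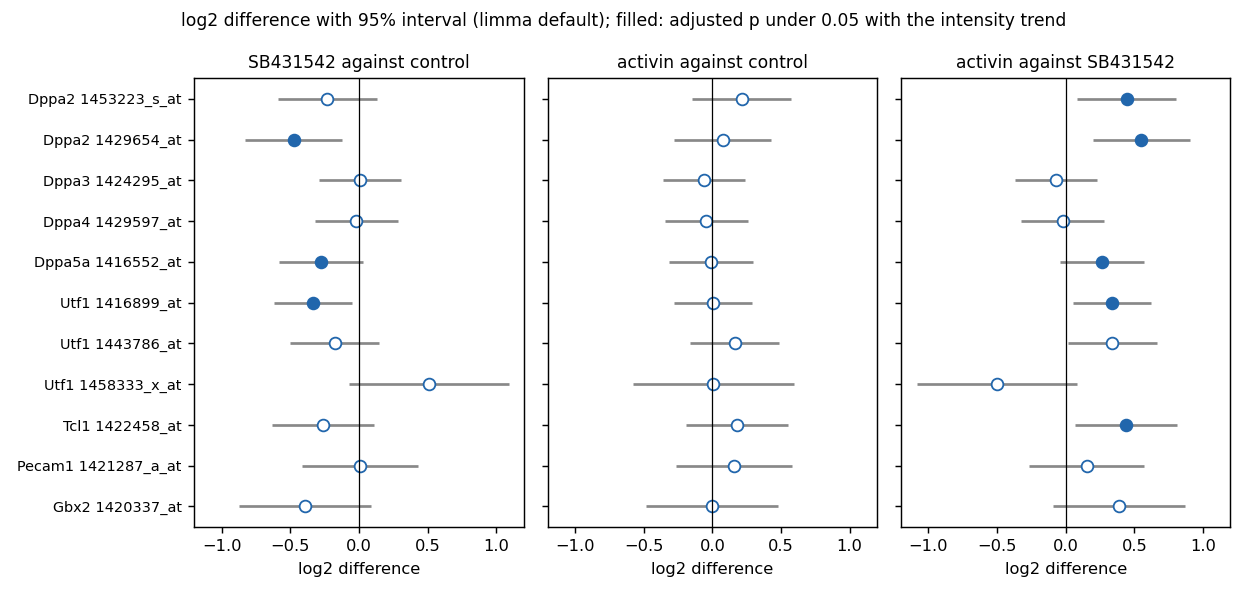
Log2 differences (horizontal axes) of all 11 probe sets in the 3 comparisons, with 95% intervals from limma at default settings; filled points have an adjusted p under 0.05 with the intensity trend. Filled points lie in the SB431542 panels and none against control after activin. In the SB431542 panels the dim Utf1 probe set 1458333_x_at lies opposite to the other Utf1 probe sets.

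Across the 8 genes, 6 had a mean below control after SB431542, as did 50.4% of all genes and 44.0% of those above log2 8. The median of the 8 was −0.25, beside 0.00 over all genes and 0.03 over genes above log2 8. Both SB431542 arrays were below both control arrays for 5 genes, where 22.4% of all genes and 24.7% of those above log2 8 were lower in that way. Among the genes above log2 8, 4.42% had a lower value than Utf1, 6.93% than Dppa5a, 7.84% than Tcl1 and 9.89% than Dppa2. Dppa4 and Dppa3 stood in the middle, with 40.2% and 46.1% of genes below them. By brightest probe set, with all arrays kept, no gene differed by more than the 1.31-fold of Gbx2, whose size moves with the array left out as given above.

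**Figure D3:**
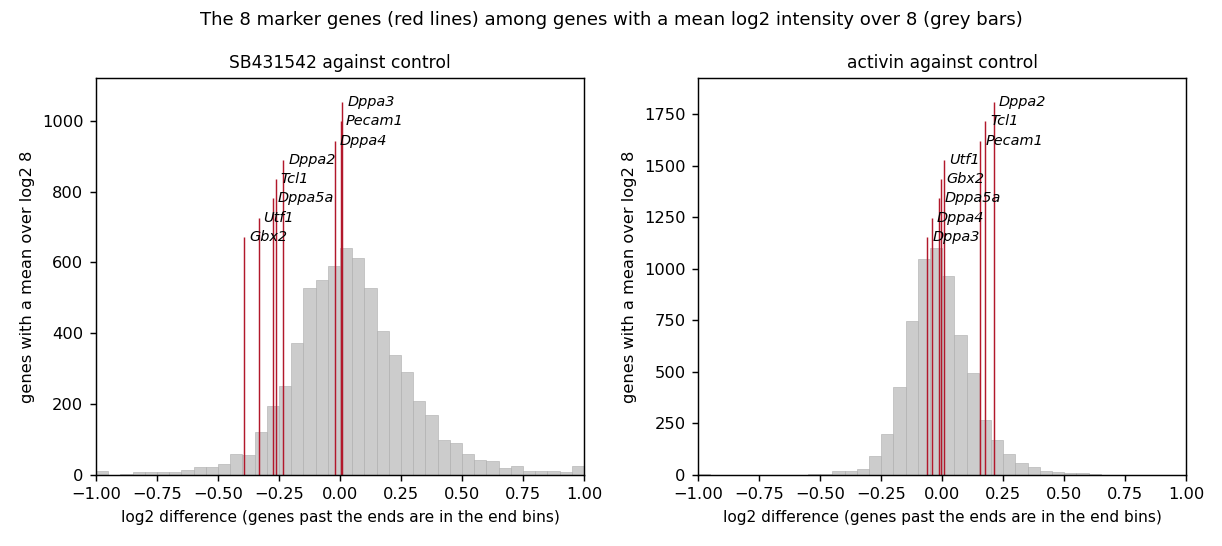
Numbers of genes with a mean over log2 8 (vertical axes, grey bars) by log2 difference from control (horizontal axes, bins of equal width), with a red line for each of the 8 marker genes, of which Gbx2 and Pecam1 themselves lie below log2 8. After SB431542 Gbx2, Utf1, Dppa5a, Tcl1 and Dppa2 stand left of the peak. After activin Dppa2, Tcl1 and Pecam1 stand right of it, in a narrower distribution.

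The comparison of activin with control asks how the markers respond to 2 h of added ligand. None of the 8 passed with limma, by default or with the intensity trend, and 0 had an unadjusted p under 0.05, against 5.24% of all genes. Over all genes 0% were called by default and 0.148% with the intensity trend. Of the 8 genes, 4 were above control, with a median of 0.00, while 51.4% of all genes were below control. Both activin arrays lay above both controls for Dppa2 by its brightest probe set and for Tcl1, where 14.9% of all genes did so. Dppa2 was at +0.21 (SE 0.14, limma adjusted p = 0.862), and its other probe set at +0.07 (SE 0.14). Tcl1 was at +0.18 (SE 0.15, limma adjusted p = 0.892) and Pecam1 at +0.16 (SE 0.17, limma adjusted p = 0.917), the latter carried by 1 array, since without activin replicate 1 it was −0.02. Without control replicate 1, Dppa2 was at +0.33 and Tcl1 at +0.34, and without control replicate 2 they were at +0.10 and +0.02. Utf1, Dppa5a, Gbx2, Dppa4 and Dppa3 lay between −0.06 and 0.01, and the sign for Utf1 and Dppa5a turned with the scaling. Their 95% intervals reach about 0.3 log2 units either way, and about 0.5 for Gbx2.

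Activin and SB431542 cells were also compared directly. This contrast shares the SB431542 arrays with the first comparison and the activin arrays with the second, and the exposures differ in length. By default 0 of the 8 genes passed, against 0.033% of all genes, and 3 (Dppa2, Utf1 and Tcl1) had an unadjusted p under 0.05, as did 10.3% of all genes. With the intensity trend 4 were higher in activin cells, Dppa2, Tcl1, Utf1 and Dppa5a, and 0 lower. Of all genes 1.26% were higher and 2.12% lower. Among those above log2 8, 1.88% were higher and 4.33% lower. Dppa2 was higher by 0.44 (SE 0.14, intensity trend adjusted p = 9.6e-04) and by 0.55 (SE 0.14, intensity trend adjusted p = 4.6e-05) by its 2 probe sets. Tcl1 was higher by 0.44 (SE 0.15, intensity trend adjusted p = 0.0183), Utf1 by 0.34 (SE 0.11, intensity trend adjusted p = 0.0078) and Dppa5a by 0.26 (SE 0.12, intensity trend adjusted p = 0.0047). Gbx2 was at +0.39 and did not pass (SE 0.19, intensity trend adjusted p = 0.393), with values from 0.21 to 0.57 when an array was left out. Both activin arrays lay above both SB431542 arrays for 5 genes, where 19.7% of all genes did so, and below them for 1, Dppa3, where 22.8% did. The Tcl1 arrays read 1048 and 1042 against 767 and 773, and the split control arrays still enter its error, since the fit takes 1 variance per probe set from all 6 arrays. Dppa3 and Dppa4 were at −0.07 and −0.02, and the sign for Dppa4 turned with quantile normalization.

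Calls made with the intensity trend, other than those of the Dppa2 probe set 1429654_at, changed with the array left out. The fit without 1 array treats the lone array of a group as varying like the others. In SB431542 against control, the Dppa2 probe set 1429654_at passed each of the 6 times (adjusted p from 2.7e-05 to 0.0261). Dppa5a passed 5 times and missed without SB431542 replicate 1, at −0.23 (adjusted p = 0.117). Utf1 passed 4 times and missed without SB431542 replicate 1 (0.0924) or replicate 2 (0.0967), although its difference stayed between −0.34 and −0.33. The count of the 8 genes went from 2 to 4 without control replicate 2, when Tcl1 and Dppa2 by its brightest probe set, at −0.34 (adjusted p = 0.0165), passed too. Without control replicate 1 that probe set of Dppa2 was at −0.12 (adjusted p = 0.590). It was 0 without SB431542 replicate 1 and 1, Dppa5a, without SB431542 replicate 2. Between the treatments, 1429654_at again passed each time, Dppa2 by its brightest probe set 5 times, Dppa5a 4, Utf1 3 and Tcl1 2. Without activin replicate 1 only Dppa2 of the 8 genes passed (adjusted p = 0.0491), and without SB431542 replicate 1 none did, with Dppa2 nearest (0.0605).

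Other genes of the ES cell network were read from lists. Of 4 core factors 0 passed by default and 2 fell with the intensity trend, with a median of −0.19. Pou5f1 was at −0.43 (SE 0.13, intensity trend adjusted p = 1.5e-04) and Nanog at −0.24 (SE 0.12, intensity trend adjusted p = 0.0408). Of 10 naive factors, with a median of −0.06, 0 passed by default, and with the intensity trend 2 fell and 1 rose. Klf4, a LIF-responsive factor, rose by 0.50, Tfcp2l1, a factor that sustains the naive state, fell by 0.42, and Nr0b1, named after its values were seen, fell by 0.31. Of 17 other ES cell markers, with a median of −0.02, 0 passed by default, and with the intensity trend 4 fell and 1 rose. Alpl, the tissue-nonspecific alkaline phosphatase used to stain ES colonies, fell by 0.53, and L1td1, an RNA-binding protein, by 0.41. Gdf3, at −0.38, Tdgf1, the Nodal co-receptor, at −0.26, and Eras, at +0.40, also passed and were named after their values were seen. Of 8 genes of the LIF/Stat3 pathway 0 passed by default and 1 fell with the intensity trend, the kinase gene Pim1 at −0.83, while Socs3, a feedback inhibitor of Stat3, was at +0.27 and did not pass. After activin 0 of the 39 genes of these lists passed by either setting.

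**Figure D4:**
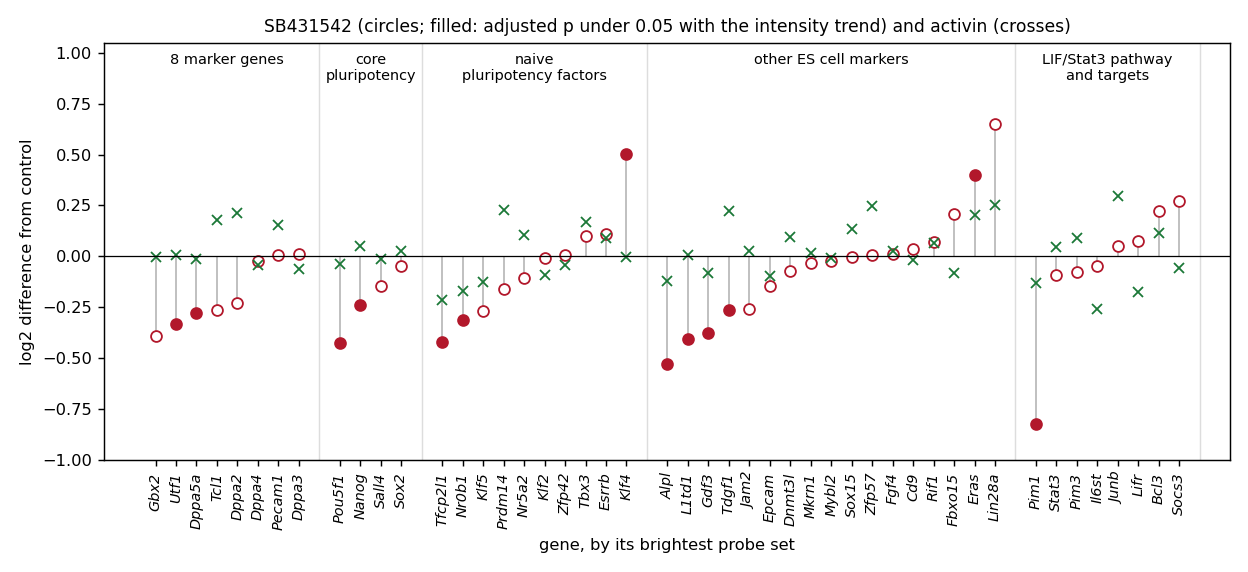
Log2 difference from control (vertical axis) for the 8 marker genes and for genes of 4 ES cell lists (horizontal axis, ordered within a list); circles are SB431542, filled where the adjusted p with the intensity trend was under 0.05, and crosses are activin. The 2 sets of differences share the control arrays. Values on both sides of 0 occur in every list other than the core factors after SB431542.

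Among those 39 genes, the 2 whose log2 values followed each marker most closely over the 6 arrays were found by Pearson's r, given as a description of arrays that share their groups and normalization. Utf1 was most like L1td1 (r = 0.99) and Nanog (0.95), and Dppa5a most like L1td1 (0.96) and Gdf3 (0.93). Tcl1 was nearest to Nanog (0.93) and Tdgf1 (0.90), and Dppa2 to the same pair, Tdgf1 (0.90) and Nanog (0.88). Gbx2 followed Klf5 (0.89) and Tfcp2l1 (0.85). The markers that differed little between groups had weaker or less telling matches, Zfp42 (0.81) and Mybl2 (0.75) for Dppa4, Fgf4 (0.79) and Nr5a2 (0.75) for Pecam1, and Fbxo15 and Cd9 (both 0.58) for Dppa3.

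Genes that work beside single markers were read from further lists. Of 12 genes of the Akt pathway, on which Tcl1 acts, 0 passed by default after SB431542 and 2 rose with the intensity trend, Akt1 by 0.60 and Gsk3b by 0.42, with a median of 0.11. Dppa2 and Dppa4 are linked to germline genes and to genes of the 2-cell embryo. Of 13 germline genes 0 passed by either setting in any comparison, with a median of −0.05 after SB431542, and 2 had a mean within the Bacillus range. The nearest by p were Taf7l at −0.62 and Slc25a31 at −0.61, both dim. Slc25a31 read 25 and 28 after SB431542, within that range, so its difference has only a lower limit. Of 4 genes of the 2-cell stage 0 passed by either setting, and 2 had a mean within the Bacillus range. The listed Zscan4c, Zscan4d and Zscan4f had no probe set annotated to 1 symbol, so they were not read. Of 5 genes of germ cell specification, where Dppa3 is also a marker, 0 passed by default, and with the intensity trend Tfap2c rose by 0.79 and Dnd1 fell by 0.63 after SB431542.

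Pecam1 and Gbx2 also mark other cells. Of 12 endothelial markers 6 had a mean within the Bacillus range, Cdh5 and Vwf among them at 4.36 and 4.39 in control, named here as defining markers, and 0 passed by either setting in any comparison. The nearest by p after SB431542 were Flt1 at +0.54 and Eng at −0.33. Their summed intensity lay between 860 and 1026 in control, 925 and 1099 after activin, and 962 and 1049 after SB431542. Of 9 neural genes 5 were within the Bacillus range, and with the intensity trend Pax6 rose by 0.74 after SB431542. Fgf8 fell with the intensity trend from 97 and 106 in control to 15 and 23, which is within the Bacillus range, so the size of its fall has only a lower limit. The sums of the neural list were 731 and 745 in control and 665 and 700 after SB431542.

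Markers of other lineages moved with the SB431542 group. Of 11 trophectoderm markers, Ascl2 rose by default, by 2.03 (SE 0.12, limma adjusted p = 0.046), and 8 rose and 0 fell with the intensity trend, with 1 marker within the Bacillus range. Cdx2 at −0.11 and Elf5 at −0.43, both named after their values were seen, were the 2 below control and did not pass. Elf5 is the marker within that range. The summed intensity of the 11 markers was 10434 and 12411 in control, 9615 and 10076 after activin, and 16131 and 16216 after SB431542. Krt8 and Krt18, named after their values were seen, make up most of these sums. Krt8 read 5946 and 4761 in control and 7026 and 7284 after SB431542, and Krt18 5166 and 4429 against 6574 and 6540. Of 10 fibroblast markers 4 were within the Bacillus range, 0 passed by default and 3 fell with the intensity trend, Vim, Fn1 (named after its values were seen) and Col1a1. Vim read 3492 and 3416 in control and 2228 and 2400 after SB431542, and Fn1 2417 and 2476 against 1846 and 1840. These 2 genes, which many cell types express, make up most of the list's sums of 6235 and 6289 in control and 4344 and 4519 after SB431542. Col1a1 fell by 0.98, and Dcn, also named after its values were seen, was at +0.69 and did not pass. Dcn read 25 and 18 in control, within the Bacillus range, so the size of its difference is not measured. Of 8 primed epiblast genes 0 passed by default and 3 fell with the intensity trend. The median of this list was −0.25, with 5 genes below control. Otx2, Pou3f1 and Dnmt3b, named after their values were seen, were above control, at +0.43, +0.32 and +0.13, and did not pass. The 3 that fell were Fgf15, at −1.84, Fgf5, and Dnmt3a, at −0.34 and also named after its values were seen. Fgf5, whose mean lies within the Bacillus range, read 29 and 42 in control and 16 and 13 after SB431542, so its size is not measured. Of 10 extraembryonic endoderm markers 0 passed by either setting and 5 were within the Bacillus range. Of 5 BMP target genes 0 passed by default and 4 rose with the intensity trend, among them Id2 at +1.60 and Msx2 at +0.88. Between the treatments Fgf15 was higher in activin cells by 2.47 (SE 0.15, limma adjusted p = 0.0368) and Ascl2 was at −2.28 (SE 0.12, limma adjusted p = 0.0252). The part of these changes in the lower values of Utf1, Dppa5a and Dppa2 was not tested.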

How the data were processed

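RNA was measured on 6 Affymetrix arrays, and the authors deposited a linear intensity per probe set, rounded to whole numbers. The submitters' processing notes name RMA, which corrects background, normalizes by quantiles and summarises probe sets (software and version not given in the sources used here). The deposited array medians still ranged from 37 to 49, and a repeated quantile normalization moved the values. Whether the deposited columns had been normalized by quantiles was not tested. Intensities were converted to log2 with no further normalization. After removal of 64 Affymetrix controls, 45037 probe sets remained, of which 34945 have 1 symbol, 932 several and 9160 none; symbols come from the platform annotation, checked through RefSeq identifiers for 34741.

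A limma model (version 3.58.1, R 4.3.3) covered the 6 arrays jointly, with a mean for each group, Benjamini-Hochberg adjustment over all probe sets and a threshold of 0.05. The script was tested on simulated data. With 2 arrays a group, their number limits the precision. The 16 gene lists hold 155 entries, of which 144 were measured. The 8 genes and the lists were chosen with earlier results of these data known. Of each list, the genes named were those past the default threshold and otherwise at most the 2 with the smallest p; exceptions are stated where they occur. The 6 promoter motifs were chosen by name. Groups and numbers follow the sample titles; some labels spell the inhibitor SB432542. Same-numbered arrays deviated from their group means with correlations of −0.14, 0.02 and −0.09, so the numbers were not used to pair them.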

Additional observations from a re-analysis of the deposited data

How the results depend on the processing

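The count of marker genes past the threshold by default settings was 0 in each comparison, and it was also 0 with repeated quantile normalization, columns shifted to 1 median, the dimmest 40% of probe sets left out, only the 2 groups compared in the fit, and probe sets of a gene averaged. Averaging moved Utf1 from −0.33 to −0.00023 in SB431542 against control and from 0.34 to 0.059 between the treatments, since its dim probe set 1458333_x_at goes the other way. With the replicate number as a block it was 0 in each comparison too, as it was with crossed numbers in activin against control, an alternative chosen after seeing the data because of the negative correlation of those arrays. With the intensity trend it was 2 for SB431542 against control and 4 for activin against SB431542. Leaving out each array in turn gave from 0 to 4 in both of these, by default settings always 0. Some small differences changed sign. After quantile normalization Dppa3 was at −0.038 and Pecam1 at −0.055 in SB431542 against control, Dppa5a at 0.0083 in activin against control, and Dppa4 at 0.029 between the treatments. With shifted columns Dppa3 was at −0.015, Pecam1 at −0.021 and, after activin, Utf1 at −0.058. With an array left out, SB431542 against control ranged from −0.035 to 0.055 for Dppa3, −0.068 to 0.026 for Dppa4 and −0.081 to 0.090 for Pecam1. Activin against control ranged from −0.091 to 0.0037 for Dppa4, −0.064 to 0.041 for Dppa5a, −0.012 to 0.025 for Utf1, −0.021 to 0.33 for Pecam1, −0.15 to 0.15 for Gbx2 and −0.040 to 0.19 for the Dppa2 probe set 1429654_at. Between the treatments it was −0.066 to 0.021 for Dppa4 and −0.026 to 0.33 for Pecam1. The cause was not tested. Of the 11 probe sets, the Utf1 probe set 1458333_x_at lies too near the background to give a change.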
